A study of Mus musculus with 4 samples.

Results

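TGF-beta and BMP signalling was followed through 10 genes, chosen by name as ligands, receptors and targets of the pathway: Tgfb1, Tgfbr1, Tgfbr2, Eng, Acvrl1, Smad3, Smad6, Smad7, Id1 and Id3. All 10 were found by symbol in the deposited count tables. The study profiled single cells from the cortex of C57BL/6N mice, 10 months old and male, to ask what antibodies against VCAM1 or VLA4 do late after stroke. VCAM1 is an adhesion molecule of activated endothelium, and VLA4 is the integrin on leukocytes that binds it. One group had sham surgery and an isotype control antibody, one had stroke surgery (dMCAO) and the isotype control antibody, one had stroke surgery and anti-VCAM1, and one had stroke surgery and anti-VLA4, each antibody for 10 weeks. Each group is 1 library, made from the pooled tissue of 4 to 5 mice. The tissue is described as the infarct core with about 2 mm of cortex around it, though sham cortex holds no infarct. It was dissociated and, without the dead cells, stained for the endothelial marker CD31 and the leukocyte marker CD45. With 1 library per group no test of a difference between conditions is possible, no p-value is given, and condition and library cannot be told apart. The intervals below cover counting error only.

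TGF-beta ligands bind TGFBR2, which recruits and activates a type I receptor, TGFBR1 (ALK5) in most cells, and this phosphorylates SMAD2 and SMAD3. In endothelium a second type I receptor, ACVRL1 (ALK1), with the co-receptor endoglin (Eng), receives BMP9 and BMP10 and signals through SMAD1, SMAD5 and SMAD9, whose best known targets are Id1 and Id3 and the inhibitory SMADs, Smad6 and Smad7. Loss of ENG or ACVRL1 causes hereditary haemorrhagic telangiectasia, and TGF-beta1 acting on TGFBR1 and TGFBR2 is needed to keep microglia in their homeostatic state.

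After filtering, 15219 of 15544 cell barcodes were kept, 1516 from the sham library, 2832 from the stroke isotype library, 4662 from the anti-VCAM1 library and 6209 from the anti-VLA4 library, with medians of 4516.5 to 5466 UMIs (unique molecules) per cell and 9892316 to 33386331 UMIs per library. Of all barcodes, 78 occurred in more than 1 library. Cells were clustered and the clusters named from marker genes, and 4 classes had at least 50 cells in every library. These were endothelial-like cells (548 in the sham, 644 in the stroke isotype, 2380 in the anti-VCAM1 and 3060 in the anti-VLA4 library), microglia-like cells (692, 1484, 1817 and 2460 in that order), border-macrophage-like cells (118, 190, 60 and 90) and T-cell-like cells (73, 248, 112 and 202). The endothelial-like class expressed all 22 endothelial markers and the microglia-like class all 13 microglial markers in every library. The share of endothelial-like cells depends on the staining and on how cells were collected and loaded, so it is not compared. Levels are UMIs per 1000000 UMIs of the class (CPM), always in the order sham isotype, stroke isotype, stroke anti-VCAM1, stroke anti-VLA4.

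The 10 genes divided between endothelium and microglia. Of all UMIs of each gene in kept cells, endothelial-like cells held 90.6% for Id1, 90.6% for Id3, 87.3% for Acvrl1, 86.6% for Smad6 and 85.1% for Eng. Microglia-like cells held 92.5% of Tgfbr1, 79.1% of Smad3, 72.5% of Tgfb1 and 58.3% of Tgfbr2 UMIs. Smad7, the inhibitory SMAD induced by both branches, had 51.3% of its UMIs in microglia-like and 40.5% in endothelial-like cells. These shares are pooled over libraries and move with the number of cells of each class: Smad7 had 1836, 3253, 3142 and 4219 UMIs in microglia-like and 815, 772, 3288 and 4953 UMIs in endothelial-like cells, in the order of the libraries above. So the co-receptor, the ALK1 receptor and the Id targets of the BMP branch lay in the vessel cells, and the TGF-beta ligand, its receptors and Smad3 mostly in microglia-like cells.

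**Figure D1:**
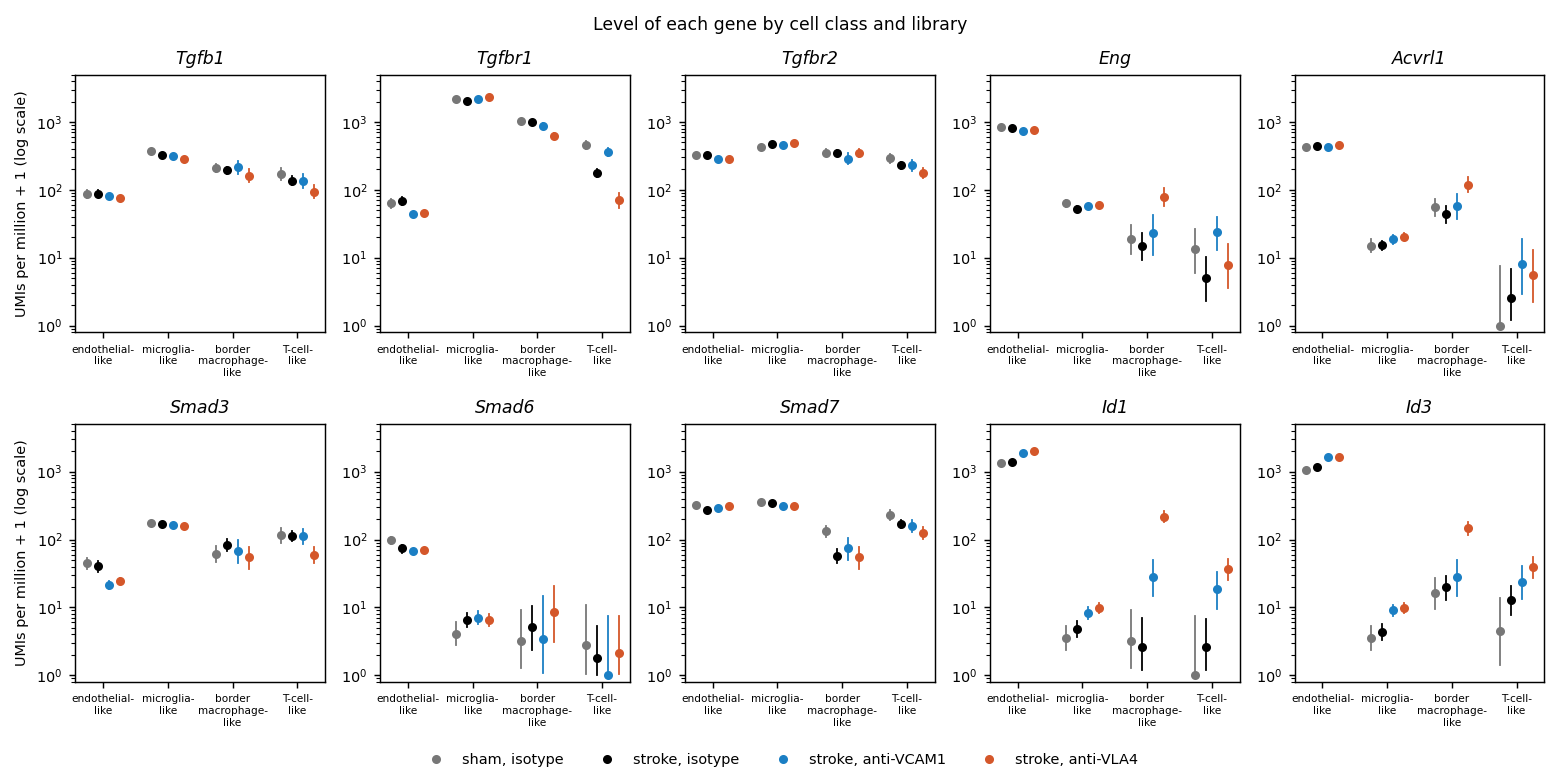
Level of each of the 10 genes (CPM plus 1, log axis) in the 4 cell classes. Each point is 1 library and each bar its 95% Poisson interval; a reader should see Id1 and Id3 above 1000 in all 4 endothelial-like samples and below 10 in all 4 microglia-like samples.

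Tgfb1, the ligand, was at 370.4, 325, 314 and 284 CPM in microglia-like cells. It was at 211, 192, 213 and 161 CPM in border-macrophage-like, 172, 134, 134 and 93.4 CPM in T-cell-like and 86.4, 86.9, 79.1 and 75.1 CPM in endothelial-like cells. In every library the microglial level was the highest and the endothelial level the lowest of the 4 classes, and the anti-VLA4 library was the lowest within each class.

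Tgfbr1, the type I receptor ALK5, had 2163, 2067, 2199 and 2320.5 CPM in microglia-like cells, and a UMI was seen in 97.4 to 99.0% of them. In border-macrophage-like cells its level was 1022, 1012, 866 and 624 CPM, and in endothelial-like cells 62.5, 67.5, 42.7 and 44.6 CPM. Among microglial clusters the summed level differed more than among libraries: cluster 7 had 3443, 3781, 3609 and 3524 CPM, while cluster 2 had 1855, 1858, 1918 and 1912 CPM. Tgfbr2, the type II receptor, was at 433, 467, 462 and 481 CPM in microglia-like and at 328, 328, 279.7 and 288 CPM in endothelial-like cells.

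Eng, the co-receptor endoglin, was at 854, 819.5, 741 and 762 CPM in endothelial-like cells and at 62.2, 52.0, 56.0 and 59.2 CPM in microglia-like cells. Acvrl1, the receptor ALK1, was at 420.3, 444, 428 and 451 CPM in endothelial-like cells and at 14.05, 14.2, 17.5 and 19.4 CPM in microglia-like cells. Endothelial Eng was lower in both antibody libraries (intervals of 726 to 757 and 749 to 776 CPM) than in both isotype libraries (818 to 891 and 786 to 854 CPM), a small difference that depends on the scaling, as given below. For Acvrl1 the intervals of both antibody libraries overlapped those of both isotype libraries.

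Smad3, the receptor-activated SMAD of the TGF-beta branch, was at 174, 167, 162 and 158 CPM in microglia-like cells and at 44.2, 39.2, 20.5 and 23.6 CPM in endothelial-like cells. Smad6, the inhibitor of BMP signalling, was at 95.9, 72.8, 66.1 and 70.1 CPM in endothelial-like cells and at 3.12, 5.47, 6.05 and 5.60 CPM in microglia-like cells. Smad7 was at 324, 273, 287 and 312 CPM in endothelial-like and at 358, 349, 311 and 315 CPM in microglia-like cells. Among these Smad levels both antibody libraries lay below both isotype libraries with intervals apart for microglial Smad7 and for endothelial Smad3, the latter at 17.9 to 23.3 and 21.3 to 26.1 CPM against 36.3 to 53.2 and 32.3 to 47.2 CPM. The microglial Smad7 difference depends on the weight of the microglial clusters, as given below.

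Id1 and Id3 encode inhibitors of basic helix-loop-helix transcription factors and are the standard readout of BMP signalling in endothelium. In endothelial-like cells Id1 was at 1319.7, 1372, 1912 and 2004 CPM, and Id3 at 1061, 1162, 1629 and 1634 CPM. Both isotype libraries were low and both antibody libraries high for each gene, and the 95% intervals of the 2 pairs did not overlap (for Id1, at most 1416 CPM in the stroke isotype and at least 1887 CPM in the anti-VCAM1 library). A UMI of Id1 was seen in 86.1, 88.0, 93.4 and 94.7% of endothelial-like cells, whose median depth was 3788.5 to 4371.5 UMIs. In microglia-like cells, at a median of 5196.5 to 7341.5 UMIs, the share was 1.88, 0.606, 2.59 and 2.56%. When every cell was thinned to 1000 UMIs, which makes shares comparable across depths, Id1 was seen in 61.8, 64.7, 75.7 and 76.8% and Id3 in 56.2, 58.1, 73.8 and 74.5% of endothelial-like cells, against at most 0.614% and 0.670% of microglia-like cells.

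Since Id1 and Id3 were both high, and Smad3 and Tgfbr1 both low, in the antibody libraries in endothelial-like cells, the promoters of the latter pair and of Id3 are shown. They are the 250 bases before the annotated start in the RefSeq table of build GRCm38.p6, which held 7 of the 10 genes (not Acvrl1, Smad7 or Id1). Letters in capitals are 2 sequences bound by SMAD proteins, searched on both strands: CAGAC, which holds the box bound by SMAD3 and SMAD4, and GGCGCC, a palindrome bound by the BMP-activated SMADs; the motifs do not overlap in the printed promoters. The Id3 promoter, upstream of the gene on the plus strand, is chr4:136143572-136143821, and CAGAC begins 167 and 68 bases before the start. The Tgfbr1 promoter of the first of its 2 table entries, also on the plus strand, is chr4:47352972-47353221, with GGCGCC 233 bases before the start. The Smad3 promoter, on the minus strand and printed in the gene's direction, is chr9:63757995-63758244 and has neither motif in this window.
Id3: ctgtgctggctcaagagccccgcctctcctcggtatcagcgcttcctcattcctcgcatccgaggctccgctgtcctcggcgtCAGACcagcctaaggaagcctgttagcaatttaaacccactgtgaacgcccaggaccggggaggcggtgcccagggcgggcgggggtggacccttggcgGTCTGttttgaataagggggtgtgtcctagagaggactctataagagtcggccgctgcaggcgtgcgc
Tgfbr1: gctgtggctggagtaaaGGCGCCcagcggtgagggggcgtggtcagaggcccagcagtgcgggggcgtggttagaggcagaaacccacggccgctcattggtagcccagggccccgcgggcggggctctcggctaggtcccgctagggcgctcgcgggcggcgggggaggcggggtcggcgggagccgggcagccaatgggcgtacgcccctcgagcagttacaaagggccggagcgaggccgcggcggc
Smad3: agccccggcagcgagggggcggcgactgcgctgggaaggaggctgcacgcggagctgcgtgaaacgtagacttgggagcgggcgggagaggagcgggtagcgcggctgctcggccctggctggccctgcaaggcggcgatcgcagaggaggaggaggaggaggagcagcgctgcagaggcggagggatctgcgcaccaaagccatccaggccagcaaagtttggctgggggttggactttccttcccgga
Of all 32851 promoters in the table, 42.19% held CAGAC, 11.73% held it at least 2 times and 9.586% held GGCGCC in a window of this length. Eng held 2 and Tgfbr2 held 1 copy of CAGAC, the other Tgfbr1 entry held 1, and Tgfb1 and Smad6 held neither motif. A match describes the letters only, and the counts here do not bear on binding.

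Stroke against sham, both with isotype antibody, asks how these genes differed late after stroke. In endothelial-like cells none of the 10 genes differed by a log2 ratio of at least 0.5 in size (past the fold, in short), while 5.38% of the 7026 genes with at least 100 UMIs over both libraries did. All 10 genes had that many UMIs. The largest difference was in Smad6, lower in the stroke library with a log2 ratio of -0.39 (95% interval -0.67 to -0.12), followed by Smad7 at -0.25 (-0.39 to -0.11). Id3 was slightly higher at 0.13 (0.06 to 0.21), and the intervals of Tgfb1, Tgfbr1, Tgfbr2, Eng, Acvrl1, Smad3 and Id1 all held 0. The median log2 ratio was 0.01 over the 10 genes and -0.03 over all genes tested. Naming single cells by their markers, without clusters, took Smad6 to -0.57, past the fold.

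Anti-VCAM1 against isotype after stroke sets the anti-VCAM1 library beside the stroke isotype library in the same cell class. In endothelial-like cells Smad3 was at -0.91 (-1.27 to -0.60) and Tgfbr1 at -0.65 (-0.91 to -0.41), both lower in the anti-VCAM1 library. These were the 2 of 10 genes past the fold, against 11% of 9335 genes tested. Id3 at 0.49 (0.43 to 0.54) and Id1 at 0.48 (0.43 to 0.53) were higher, just short of 0.5, and ranked at the 96.96 and 96.79 percentile of all genes tested. Tgfbr2 was at -0.23 (-0.34 to -0.12) and Eng at -0.14 (-0.21 to -0.08), and the intervals of Tgfb1, Acvrl1, Smad6 and Smad7 held 0.

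Anti-VLA4 against isotype after stroke used the same stroke isotype library, so the 2 antibody comparisons are not independent. Smad3 was at -0.71 (-1.04 to -0.41), Tgfbr1 at -0.59 (-0.83 to -0.36) and Id1 at 0.55 (0.50 to 0.60), 3 of 10 genes past the fold against 13.4% of 9761 genes tested. Id3 was at 0.49 (0.44 to 0.54), Smad7 at 0.19 (0.08 to 0.30), Tgfbr2 at -0.19 (-0.29 to -0.08) and Tgfb1 at -0.21 (-0.41 to -0.01). Acvrl1 and Smad6 had intervals that held 0.

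**Figure D2:**
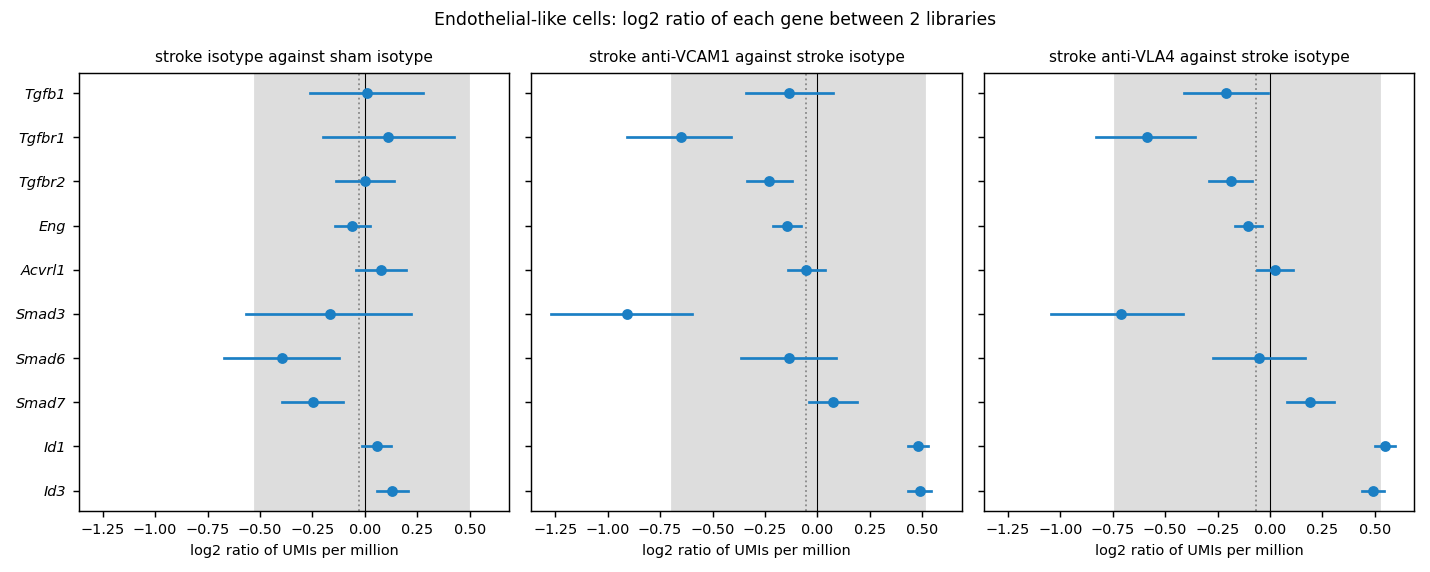
Log2 ratio of CPM in endothelial-like cells for the 3 comparisons of 2 libraries. Points are the 10 genes with 95% counting intervals, the dotted line is the median of all genes tested and the grey band holds the central 95% of them; Smad3 falls below the band under anti-VCAM1 and Id1 lies above it under anti-VLA4.

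The endothelial ratios were also read under another scaling. TMM factors, which assume that most genes do not change, moved the median of all endothelial genes from -0.06 to 0.08 under anti-VCAM1. Under anti-VLA4 that median moved from -0.07 to 0.08, so neither scaling put it at 0. Id1 was then at 0.62 and 0.70 and Id3 at 0.63 and 0.64, all past the fold, while Smad3 was at -0.77 and -0.56 and Tgfbr1 at -0.51 and -0.44. In the antibody comparisons 5 ratios near 0 changed sign with this shift. Under anti-VCAM1 these were Tgfb1 (-0.13 to 0.0044), Acvrl1 (-0.05 to 0.09) and Smad6 (-0.14 to 0.0009), and under anti-VLA4 Eng (-0.10 to 0.05) and Smad6 (-0.05 to 0.10). Eng under anti-VCAM1 came to -0.0041.

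The ratios of Id1 and Id3 also moved with the span of genes along the genome. After the trend of log2 ratio on gene span was removed, Id1 was at 0.19 under anti-VCAM1 and 0.27 under anti-VLA4, and Id3 at 0.21 and 0.22, under the fold but above 0. Smad3 was at -0.66 and -0.44 and Tgfbr1 at -0.50 and -0.43 in the same fit. The cause of this trend was not tested.

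Endothelial-like cells fell into 7 clusters whose shares differed between libraries, so the levels were read within clusters. Cluster 3, named arterial from 8 markers, made up 19.5, 20.2, 21.8 and 22.7% of the class, and cluster 14, named venous from 7 markers, made up 9.49, 6.83, 2.73 and 2.71%. Cluster 0, with no type from the markers, went from 48.4 and 38.7% in the isotype libraries to 24.8 and 24.2% in the antibody libraries. Cluster 5, in which the nuclear RNA Malat1 was 0.471% of UMIs against 2.15% in the class, went from 2.74 and 6.21% to 22.0 and 23.2%, so that 524 and 710 of its 1289 cells came from the antibody libraries.

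Id1 was higher in the antibody libraries in each of the 3 largest clusters. In cluster 0 it was at 1089, 1136, 1477 and 1524 CPM. In the arterial cluster 3 it was at 1608, 1516, 2078 and 2086 CPM, and in cluster 4, led by Car4 and Slc16a1, at 1504, 1600.3, 1877 and 2101 CPM. In all 3 the intervals of both antibody libraries lay above those of both isotype libraries. In cluster 5 Id1 was high in every library, at 2969, 2343, 2509.9 and 2708 CPM, and the sham level there rests on 15 cells.

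Id3 followed Id1 within clusters. It was at 866, 952, 1145 and 1234 CPM in cluster 0, at 1309, 1289, 1649.5 and 1630.2 CPM in the arterial cluster and at 1316, 1299, 1757 and 1753 CPM in cluster 4. In the venous cluster it was at 885, 927, 1360.0 and 1351 CPM. Each of these 4 clusters had both antibody libraries above both isotype libraries.

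Smad3 differed between endothelial clusters as well as between libraries. In cluster 0 it was at 54.6, 58.0, 33.7 and 39.7 CPM, lower in the antibody libraries, and in the venous cluster at 70.8, 96.2, 48.5 and 46.5 CPM with overlapping intervals. In the arterial cluster it ranged from 13.6 CPM in the anti-VCAM1 to 15.7 CPM in the stroke isotype library. The isotype levels there rest on 107 sham and 130 stroke isotype cells. At so low a level a difference of the size seen in cluster 0 could go unseen. Tgfbr1 was nearly level in cluster 0, at 67.2, 80.2, 64.9 and 68.1 CPM, and spread from 30.6 to 127 CPM in the venous cluster, where the stroke isotype library was high at 127 CPM (81.9 to 187) and the anti-VCAM1 library low at 30.6 CPM (15.8 to 53.5). Smad6 was higher in the arterial cluster, at 143, 101, 110.2 and 102 CPM, than in the venous one, at 35.4, 25.3, 15.3 and 35.3 CPM, in every library.

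**Figure D3:**
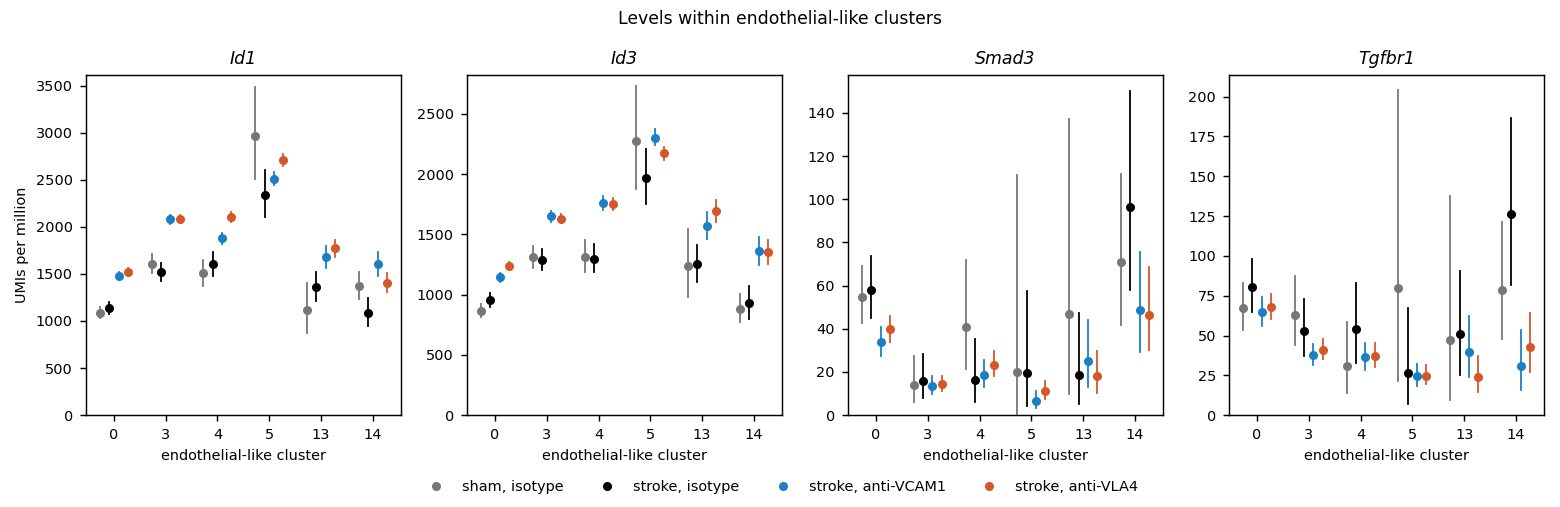
Level in CPM of Id1, Id3, Smad3 and Tgfbr1 in 6 endothelial-like clusters (3 arterial, 14 venous; the cluster of lowest depth, 15, is not drawn). Points are libraries with 95% Poisson intervals. In clusters 0, 3 and 4 both antibody libraries lie above both isotype libraries for Id1 and Id3. Smad3 in cluster 3 is low in all 4 libraries, with few cells in the isotype libraries.

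With every cluster of the class given the same weight in both libraries, Id1 was at 0.27 under anti-VCAM1 and 0.36 under anti-VLA4, Id3 at 0.30 and 0.31, Smad3 at -0.56 and -0.38, and Tgfbr1 at -0.37 and -0.29. Without the 2 clusters of low Malat1, Id1 was at 0.44 and 0.49 and Id3 at 0.42 and 0.44, and Smad3 was at -0.76 and -0.60. The Smad3 ratio was at least 0.5 in size under all 15 alternative settings for anti-VCAM1 and under 13 of 15 for anti-VLA4. Not all of the 15 for anti-VCAM1 measured Smad3 by the UMI minimum. It had too few UMIs with cells thinned, and also without cells holding UMIs of another class's whole marker list. The Tgfbr1 ratio was at least 0.5 in size under 10 and 6 of 15. Id1 and Id3 were above 0 under every one of the 15 settings.

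Pericyte markers were also higher in the antibody libraries: the 10 of them summed to 129, 133, 238 and 253 CPM in endothelial-like cells, with Notch3 at 0 in the sham library. The 13 microglial markers, none at 0, did not follow that split and summed to 845, 1175, 1091 and 1060 CPM. Leaving out the cells that held defining markers of pericytes or microglia (18, 28, 186 and 284 cells, a setting chosen after seeing the data) gave Id1 at 0.45 and 0.53, Id3 at 0.47 and 0.47, and Smad3 at -0.90 and -0.64. Tgfbr1 in endothelial-like cells was then 63.8, 53.3, 40.3 and 44.0 CPM, and its ratios were -0.40 and -0.27, under the fold. Without the 1 endothelial-like cell per library with the most Tgfbr1 UMIs the ratios were -0.49 and -0.39, also under the fold. Haemoglobin and other erythroid markers in the class summed to 274, 2617, 1970 and 2035 CPM and the 16 immediate-early and heat-shock genes to 4404, 3474, 3884 and 4035 CPM. Their part in the result was not tested.

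In microglia-like cells the genes of the TGF-beta branch were close to level. Stroke against sham put 0 of the 7 genes with enough UMIs past the fold, against 3.8% of 9364 genes tested. The log2 ratios were -0.19 (-0.27 to -0.10) for Tgfb1, -0.06 (-0.10 to -0.03) for Tgfbr1, 0.11 (0.03 to 0.18) for Tgfbr2, -0.06 (-0.18 to 0.06) for Smad3 and -0.04 (-0.12 to 0.05) for Smad7. Smad6, Id1 and Id3 had fewer than 100 UMIs over the 2 libraries.

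Against the stroke isotype library, microglial Tgfbr1 was at 0.09 (0.06 to 0.12) under anti-VCAM1 and 0.17 (0.14 to 0.19) under anti-VLA4. Tgfb1 was at -0.05 (-0.12 to 0.02) and -0.20 (-0.27 to -0.13), and Smad7 at -0.16 (-0.23 to -0.09) and -0.15 (-0.21 to -0.08). Tgfbr2 and Smad3 had intervals that held 0 in both comparisons. All of these differences were under the fold. With every microglial cluster given the same weight in both libraries, Smad7 was at -0.06 under anti-VCAM1. Under anti-VLA4 it was then at 0.08, with the sign turned, Tgfbr1 at 0.07 and Tgfb1 at -0.08.

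Id1 and Id3 were the 2 of 10 genes past the fold in microglia-like cells, under anti-VCAM1 (2.27% of 9977 genes) and under anti-VLA4 (3.76% of 10272 genes). Both are near background there. Id1 had 13, 35, 73 and 118 UMIs, or 2.54, 3.75, 7.23 and 8.81 CPM, and Id3 had 13, 31, 81 and 119 UMIs, or 2.54, 3.32, 8.03 and 8.88 CPM. They passed the 100-UMI filter mainly through the antibody libraries. Given their UMIs in the stroke isotype library, both under anti-VCAM1 and Id3 under anti-VLA4 could only pass it with a ratio past the fold. So nothing is read from these counts of genes. Id1 was at 0.79 (0.35 to 1.57) and 1.05 (0.68 to 1.82), and Id3 at 1.06 (0.66 to 1.92) and 1.19 (0.84 to 2.04). In the stroke isotype library the 10 cells richest in Id1 held all of its microglial UMIs, and cluster 6 held 28 of the 35. The 22 endothelial markers summed to 112, 185, 248 and 234 CPM in microglia-like cells, with Sema3g, Gkn3, Bmx and Slc38a5 at 0 in the sham, Gkn3 and Bmx at 0 in the stroke isotype and none at 0 in the antibody libraries. Their part in the result was not tested. Without the 0 to 13 cells per library that held defining endothelial markers, Id1 was at 2.54, 0.860, 4.00 and 4.96 CPM and Id3 at 2.54, 1.18, 5.10 and 4.88 CPM. Neither then reached 100 UMIs over 2 libraries. The ratios, below that filter, were 1.43 and 1.68 for Id1 and 1.48 and 1.43 for Id3. They are set against stroke isotype levels of 0.860 and 1.18 CPM, so nothing is read from them. With all cells kept and every microglial cluster given the same weight in both libraries, the ratios were smaller. Id1 was then at 0.15 under anti-VCAM1 and 0.28 under anti-VLA4, and Id3 at 0.39 and 0.30, all under the fold.

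In T-cell-like cells 5 of the 10 genes had at least 100 UMIs in each comparison, and Tgfbr1 had the largest ratio of these. Id1 had 0, 2, 10 and 31 UMIs and Id3 had 2, 15, 13 and 33 UMIs, under the filter. The Tgfbr1 level was 457, 175, 359 and 70.3 CPM. It was high in the sham and anti-VCAM1 libraries and low in the stroke isotype and anti-VLA4 libraries. The intervals of the first pair (311 to 516 CPM) lay above those of the second (53.8 to 199 CPM). For Tgfbr1, stroke against sham was at -1.38 (-1.65 to -1.12), 1 of 5 genes past the fold against 23% of 3201 genes. Anti-VCAM1 was at 1.03 (0.76 to 1.32), 1 of 5 against 13.7% of 3069 genes, and anti-VLA4 at -1.30 (-1.75 to -0.90), with 3 of 5 past the fold against 14.6% of 3464 genes. The others past the fold under anti-VLA4 were Smad3, from 112 to 58.8 CPM at -0.92 (-1.43 to -0.46), and Tgfb1, from 134 to 93.4 CPM at -0.52 (-0.93 to -0.14).

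Microglial markers moved with Tgfbr1 in T-cell-like cells. The 13 microglial markers, none at 0, summed to 4632, 1413, 3441 and 721 CPM there, the same order as the Tgfbr1 levels, and 10 cells held 87.0, 67.0, 85.3 and 54.1% of its UMIs. Without the 8, 12, 13 and 12 cells that held defining microglial or endothelial markers, Tgfbr1 was at 109.7, 73.5, 62.0 and 47.3 CPM. The ratios were then -0.57 for stroke against sham, -0.24 for anti-VCAM1, with the sign turned, and -0.62 for anti-VLA4. Smad3 under anti-VLA4 stayed past the fold at -0.77, and Tgfb1 did not at -0.20. Tgfbr2, at 289, 230.1, 229 and 175 CPM, and Smad7, at 228, 167, 158 and 124 CPM, were highest in the sham and lowest in the anti-VLA4 library over the whole class, where neither passed the fold in any of the 3 comparisons. Without the cells with defining markers Smad7 was at 185, 148, 104 and 123 CPM and just past the fold under anti-VCAM1, at -0.50, and it was at -0.57 in stroke against sham with single cells named by their markers.

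Border-macrophage-like cells are the smallest of the 4 classes. Smad7 was at 131, 56.8, 73.6 and 53.6 CPM, high in the sham library, and its log2 ratio in stroke against sham was -1.19 (-1.66 to -0.76), 1 of 6 genes past the fold against 9.81% of 3548 genes. The 10 cells richest in Smad7 held 53.6 to 96.7% of its UMIs, depending on the library. The ratio kept -1.19 without cells holding endothelial markers. It was at -0.47 when single cells were named by their markers, without clusters, under the fold. Under anti-VCAM1, 0 of 4 genes passed the fold, against 13.5% of 2788 genes.

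Under anti-VLA4, 4 of 6 genes passed in border-macrophage-like cells, against 18.2% of 2980 genes. Among the 4 were Id1, which reached 100 UMIs only through the anti-VLA4 library, and Acvrl1. Given their UMIs in the stroke isotype library, both could reach 100 UMIs only with a ratio past the fold. So both had to differ, and nothing is read from the 4 of 6. Id1 was at 2.22, 1.65, 27.0 and 216 CPM, from 2, 2, 11 and 113 UMIs, and all 113 UMIs of the anti-VLA4 library lay in 10 or fewer cells. Against the 2 UMIs of the stroke isotype library this is a log2 ratio of 6.36 (5.15 to 10.10). Acvrl1 was at 54.4, 42.8, 56.4 and 119 CPM with a ratio of 1.45 (0.92 to 2.03), and Eng, below the filter, at 17.7, 13.99, 22.1 and 78.4 CPM. Tgfbr1 was lower at -0.70 (-0.88 to -0.52) and Smad3 at -0.62 (-1.29 to -0.02). The 22 endothelial markers summed to 260, 249, 687 and 3382 CPM, with 9, 8, 2 and 2 of them at 0 (Cldn5, Kdr and Cdh5 among those in the sham, Cdh5 in the stroke isotype library). Without the 0, 1, 2 and 10 cells that held defining endothelial markers, Id1 was at 2.22, 1.65, 2.59 and 2.34 CPM, Eng at 17.7, 13.2, 18.1 and 21.0 CPM and Acvrl1 at 54.4, 42.9, 46.6 and 53.7 CPM. Tgfbr1 was then at 1022, 1007, 842 and 694 CPM with a ratio of -0.54, still past the fold.

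**Figure D4:**
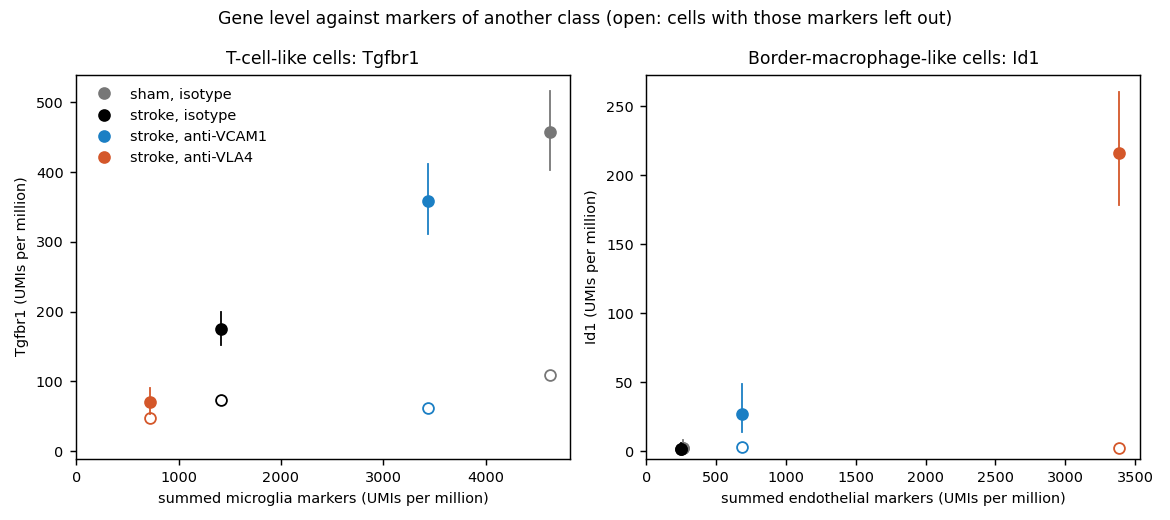
Tgfbr1 in T-cell-like cells against the summed microglial markers of the class (left) and Id1 in border-macrophage-like cells against the summed endothelial markers (right), all in CPM, 1 point per library with a 95% Poisson interval. Open points are the levels without cells that held defining markers of the other class, plotted at the same marker level; Id1 drops from 216 to 2.34 in the anti-VLA4 library and Tgfbr1 from 457 to 109.7 in the sham library.

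A wider list of 52 TGF-beta and BMP genes, none of them among the 10, was read for context. In endothelial-like cells 21 had enough UMIs in stroke against sham, with 0 higher and 3 lower past the fold (2.41% and 2.97% of all genes tested) and a median of -0.14 against -0.03 over all genes. The 3 were Acvr2a, an activin receptor, from 76.4 to 40.6 CPM at -0.89 (-1.26 to -0.57), Smurf1, a ubiquitin ligase that removes SMADs and receptors, from 81.2 to 49.1 CPM at -0.71 (-1.05 to -0.41), and Ccn2, a TGF-beta target, from 49.7 to 34.6 CPM at -0.51 (-0.92 to -0.13). Under anti-VCAM1, 28 genes were measured, with 2 higher and 1 lower past the fold (2.75% and 8.23% of all genes tested) and a median of -0.11 against -0.06. Under anti-VLA4, 28 genes were measured, again with 2 higher and 1 lower past the fold (3.19% and 10.2% of all genes tested), and the median was -0.05 against -0.07.

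The endothelial genes of the wider list with the largest antibody ratios were Itgav, Ccn2 and Tmem100. Itgav, the integrin chain that activates latent TGF-beta, went from 41.3 CPM in the stroke isotype library to 25.2 CPM under anti-VCAM1 (-0.69, -1.03 to -0.39) and 25.7 CPM under anti-VLA4 (-0.66, -0.98 to -0.37). Ccn2 was at 53.0 and 55.4 CPM against 34.6 CPM (0.60, 0.30 to 0.94, and 0.66, 0.37 to 0.99), and at 49.7 CPM in the sham library. Tmem100, a target of ALK1, was at 56.1 and 54.9 CPM against 37.8 CPM (0.56, 0.27 to 0.88, and 0.53, 0.25 to 0.84).

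In microglia-like cells 23 of the 52 genes were measured in each comparison. None passed the fold in stroke against sham or under anti-VCAM1, and under anti-VLA4 0 were higher and 3 lower (1.67% and 2.08% of all genes tested). Among them were Id2, from 73.1 to 47.7 CPM (-0.61, -0.77 to -0.46) and Tgif1, a repressor of SMAD transcription, from 91.2 to 61.6 CPM (-0.56, -0.71 to -0.43). The summed level of 16 immediate-early and heat-shock genes in microglia-like cells was 16945, 13834, 10986 and 9266 CPM, falling in the same order as Tgfb1 there, and its part in these values was not tested. In T-cell-like cells 9 of the 52 genes were measured. In stroke against sham 0 were higher and 5 lower past the fold (6.44% and 16.5% of all genes tested), with a median of -0.61 against -0.07 over all genes. The 5, named after their values were seen, were Nrros, Itgav, Smurf2, Skil and Pmepa1, from -1.15 for Nrros to -0.61 for Itgav. The microglial markers in the class, given above, were lower in the same comparison, and their part in this result was not tested. Under anti-VCAM1 Nrros was the 1 gene past the fold, at 0.66 (13.7% of all genes), and under anti-VLA4 it was Pmepa1, at -0.96 (14.6%). In border-macrophage-like cells 3 of 18 passed in stroke against sham (9.81%), 0 of 12 under anti-VCAM1 (13.5%) and 3 of 14 under anti-VLA4 (18.2%).

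Across the 16 points of 4 classes by 4 libraries, the genes whose log2 levels followed each gene most closely were taken from 12036 candidates as a description; the points share libraries and are set mostly by class. Id1 was nearest to Car4 (Pearson r 0.994) and Mal (0.991), and Id3 to Cald1 (0.986) and Ptn (0.985). Eng was nearest to Arhgap29 (0.985), Acvrl1 to Atox1 (0.982) and Smad6 to Slc39a10 (0.987). Tgfbr1 was nearest to Itgb5 (0.995), Tgfb1 to Gm26542 (0.993), Tgfbr2 to Peli2 (0.979), Smad3 to Maml2 (0.964) and Smad7 to Chic2 (0.928).

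An Id3 UMI was seen in a larger share of endothelial-like cells with an Id1 UMI than of those without. Among cells thinned to 1000 UMIs, Id3 was seen in 61.7, 66.0, 77.7 and 77.4% of those with an Id1 UMI and in 47.3, 43.7, 61.6 and 64.9% of those without. The interval of the first share lay above that of the second in every library (56.2 to 67.0% against 40.3 to 54.4% in the sham). Whether this holds within clusters was not tested. No such difference was seen for Smad6 and Id1. Id1 was seen in 63.5, 62.5, 77.8 and 76.9% of cells with and in 61.7, 64.9, 75.5 and 76.8% of cells without a Smad6 UMI. Only 52 sham and 48 stroke isotype cells had a Smad6 UMI, with intervals of 49.0 to 76.4% and 47.4 to 76.0%. In the sham library a gap of the size seen for Id3 could go unseen.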

How the data were processed

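The files hold raw UMI counts per gene and cell, deposited by the authors as 1 gene-by-cell matrix per library. The file headers name Cell Ranger 7.0.1, while the submitters' processing notes name Cell Ranger 6.0.0 and Seurat 4.3.0.1 with the builds mm10 and GRCh38; the annotation and whether intronic reads were counted are not given in the sources used here. The deposited barcodes had already been called as cells. Whether libraries were separate runs is not stated.

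Kept cells had 500 or more UMIs, 200 or more genes and no more than 10% of UMIs from mitochondrial genes, and doublets called by Scrublet (0.590 to 1.96% of cells per library) were left out. Counts were normalized and clustered in scanpy 1.11.5 (2000 variable genes, 30 principal components, 15 neighbours, Leiden resolution 1; leidenalg 0.10.2), leaving out 200 genes, the 10 studied genes and the wider pathway list among them, from the variable genes. Of 23 clusters 22 were named from marker lists, by a rule settled after the clusters were seen. For each library, the UMIs of a class were added up and expressed per 1000000 UMIs (CPM). Ratios are log2 with a pseudocount of 1 CPM, with 95% conditional binomial intervals, and levels have 95% Poisson and shares 95% Clopper-Pearson intervals. A gene is past the fold when its log2 ratio is at least 0.5 in size and it has at least 100 UMIs over both libraries. Ratios were tested on simulated counts before use. TMM factors came from edgeR 4.0.16 (R 4.3.3), and gene spans from the GENCODE annotation of GRCm38 (99.61% of genes matched). Calculations used scipy 1.17.1, numpy 2.4.6, statsmodels 0.14.6, pandas 2.3.3 and matplotlib 3.10.9 under Python 3.11.15.

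The 10 genes, the pathway list, the markers and the tests were chosen with earlier results of these data known. From the 52 pathway genes, the text names, for endothelial-like cells and for microglia-like ones, up to 3 with the largest ratio per comparison among those with at least 200 UMIs, and in the likeness description the 1 or 2 genes with the highest correlation. One gene that this rule names is not reported here.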

Additional observations from a re-analysis of the deposited data

How the results depend on the processing

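With 1 library per group nothing here has a spread between samples, so each value is read against its counting interval, and classes of 60 to 248 cells limit what can be seen. No paired analysis was possible because each group has 1 library. Of 1320 log2 ratios recomputed for the 10 genes, 1163 lay within the counting interval of the value reported, and 106 had the other sign, most of them ratios short of the fold; of 960 levels 771 lay within their interval. Of 204 counts 137 were the same number, 15 differed by up to 1.5 times and 52 by more. The ratios past the fold that turned sign were Tgfbr1 in T-cell-like cells under anti-VCAM1 (-0.24 without cells holding defining markers of another class, -0.56 without cells holding 3 or more UMIs of another class's whole marker list), Tgfb1 there under anti-VLA4 (0.30 with cells thinned to 1000 UMIs, 0.12 with the whole list) and Id1 in border-macrophage-like cells under anti-VLA4 (-1.69 with the whole list). Both marker settings were chosen after seeing the data, and the whole-list one leaves out 52.19 to 72.12% of endothelial-like cells.

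Counts of genes past the fold that moved by more than 1.5 times were as follows. In endothelial-like cells, stroke against sham went from 0 to 1 with doublets kept (Tgfbr1 at 0.82) and when single cells were named by their markers. Anti-VCAM1 went from 2 to 4 with TMM, with the mean of per-cell CPM and without whole-list cells, and to 1 with doublets kept, single-cell naming, the cell richest in each gene left out, clusters weighted alike and defining-marker cells left out. Anti-VLA4 went from 3 to 1 with single-cell naming and to 0 with clusters weighted alike and with the gene span trend removed. In microglia-like cells, stroke went from 0 to 1 with a minimum of 20 UMIs. Anti-VCAM1 went from 2 to 0 with a pseudocount of 10 CPM, a minimum of 200 UMIs, thinning, doublets kept, resolution 0.5, single-cell naming, the richest cell left out, clusters weighted alike and either marker setting, in part because Id1 and Id3 then had too few UMIs. Anti-VLA4 went from 2 to 1 with the pseudocount of 10 and to 0 with 200 UMIs, thinning, clusters weighted alike and either marker setting. In T-cell-like cells, stroke went from 1 to 0 with thinning and whole-list cells left out and to 2 with single-cell naming; anti-VCAM1 from 1 to 2 with 20 UMIs and to 0 with thinning; anti-VLA4 from 3 to 5 with 20 UMIs, to 1 with the mean of per-cell CPM and with doublets kept, and to 0 with thinning and whole-list cells left out. In border-macrophage-like cells, stroke went from 1 to 0 with 200 UMIs, thinning and single-cell naming; anti-VCAM1 from 0 to 1 with 20 UMIs, resolution 0.5, single-cell naming, the richest cell left out and whole-list cells left out; anti-VLA4 from 4 to 1 with 200 UMIs and defining-marker cells left out and to 0 with thinning and whole-list cells left out. Thinning and the 200-UMI minimum leave fewer genes measured; otherwise the cause was not tested.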

Other observations

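One cluster of 323 cells (2 in the sham, 9 in the stroke isotype, 123 in the anti-VCAM1 and 189 in the anti-VLA4 library) held markers of both endothelium and pericytes and was left unnamed, outside every comparison. Over these cells Id1 was at 2064 CPM (2005 to 2125), Id3 at 1624 CPM (1572 to 1678), Eng at 709 CPM (674 to 745), Acvrl1 at 399.5 CPM (374 to 427) and Smad3 at 19.8 CPM (14.4 to 26.5). These cells came almost wholly from the antibody libraries, so no level is set against the isotype libraries.

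Pericyte-like cells, too few in the isotype libraries to compare (10, 13, 56 and 90 cells), had Id1 at 93.3 CPM (19.2 to 273), 476 CPM (316 to 688), 950.3 CPM (858 to 1049.8) and 915 CPM (839.8 to 994). Id3 was at 124, 476, 815 and 717 CPM in the same order. The isotype levels rest on few cells, so no comparison is drawn. Over the libraries Eng ranged from 187 to 399 CPM and Acvrl1 from 0 to 221 CPM in this class. The part of endothelial RNA in these levels was not tested.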
